A study of Mus musculus with 20 samples.

Results

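Voltage-gated sodium channels were followed through 8 subunit genes, chosen by name and matched by symbol to the Ensembl identifiers of the count tables, which list 46078 genes. Of these, 5 encode pore-forming alpha subunits (Scn1a, Scn2a, Scn3a, Scn8a and the related Scn7a) and 3 encode auxiliary beta subunits (Scn2b, Scn3b and Scn4b). The 20 bulk RNA-seq libraries come from male wild-type C57BL/6J mice of 18 months, each 7 weeks after a stroke made by occluding the distal middle cerebral artery and adding hypoxia (DH stroke). From 1 week after the stroke, mice were injected under the skin 3 times a week for 6 weeks, either with PBS (vehicle) or with 4 g/kg HPBCD (2-hydroxypropyl-β-cyclodextrin, a ring-shaped sugar that binds lipids). Peri-infarct tissue was cut from beside the infarct after the infarct had been taken out, and contralateral tissue from the matching place in the other hemisphere, which gave 4 groups of 5 libraries. Every mouse had a stroke, so the contralateral groups are not uninjured brain. Each library holds the RNA of all cell types of its piece of tissue.

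An alpha subunit forms the whole sodium-selective pore, and its opening carries the upstroke of the action potential. Scn1a encodes Nav1.1, which is prominent in parvalbumin interneurons, Scn2a encodes Nav1.2, the channel of excitatory axons and unmyelinated fibres, and Scn8a encodes Nav1.6, concentrated at the axon initial segment and at nodes of Ranvier. Scn3a encodes Nav1.3, which is best known from the developing brain, and Scn7a encodes Nax, a sodium-sensing relative that is also found in glia. The beta subunits have 1 membrane span and an immunoglobulin-like outer domain. Scn2b and Scn4b products are linked to the alpha subunit by a disulphide bond, and the Scn3b product is bound without one.

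By the GENCODE annotation of GRCm38, 4 of the alpha genes lie on chromosome 2 within 1.33 Mb, namely Scn3a (65457118 to 65567627, minus strand), Scn2a (65620771 to 65767447, plus strand), Scn1a (66270778 to 66440840, minus strand) and Scn7a (66673425 to 66784914, minus strand). Scn8a lies on chromosome 15 (100869858 to 101045938, plus strand). Scn3b (40269217 to 40291618), Scn2b (45117782 to 45130070) and Scn4b (45138395 to 45154152) lie on the plus strand of chromosome 9, with 0.00833 Mb between the end of Scn2b and the start of Scn4b. No exon base of the 8 genes overlapped an exon of another gene on either strand, so reads of antisense partners were not a question for these counts.

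Promoter windows of 300 bases, from 250 before to 50 after a transcription start, were read from RefSeq (GRCm38.p6) for the 6 members that had an entry (8 windows). The windows of the members whose transcripts differed most steadily between the regions are printed 5′ to 3′, with CpG dinucleotides in capitals. They are Scn1a (chr2:66440788-66441087, minus strand), the upstream window of Scn8a (chr15:100870395-100870694, plus strand), Scn2b (chr9:45117626-45117925, plus strand) and, from the members that were higher in peri-infarct tissue, Scn7a (chr2:66784861-66785160, minus strand).
Scn1a: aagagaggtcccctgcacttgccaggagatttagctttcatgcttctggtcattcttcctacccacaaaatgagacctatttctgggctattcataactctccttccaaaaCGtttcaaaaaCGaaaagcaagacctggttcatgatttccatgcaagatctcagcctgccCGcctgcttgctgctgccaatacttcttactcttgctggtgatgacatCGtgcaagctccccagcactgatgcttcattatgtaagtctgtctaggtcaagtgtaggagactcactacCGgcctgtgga
Scn8a: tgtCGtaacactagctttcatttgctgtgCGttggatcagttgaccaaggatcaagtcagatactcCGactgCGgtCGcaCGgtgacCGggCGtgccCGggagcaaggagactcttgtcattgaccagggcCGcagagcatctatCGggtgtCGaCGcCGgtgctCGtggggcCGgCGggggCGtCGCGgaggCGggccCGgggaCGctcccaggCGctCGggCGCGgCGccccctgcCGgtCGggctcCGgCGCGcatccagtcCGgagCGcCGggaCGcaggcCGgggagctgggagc
Scn2b: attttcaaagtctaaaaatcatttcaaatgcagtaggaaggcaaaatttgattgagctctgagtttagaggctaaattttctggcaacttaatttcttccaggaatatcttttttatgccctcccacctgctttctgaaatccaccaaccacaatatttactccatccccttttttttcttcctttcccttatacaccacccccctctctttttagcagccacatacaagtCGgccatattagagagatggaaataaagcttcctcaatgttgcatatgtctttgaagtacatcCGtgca
Scn7a: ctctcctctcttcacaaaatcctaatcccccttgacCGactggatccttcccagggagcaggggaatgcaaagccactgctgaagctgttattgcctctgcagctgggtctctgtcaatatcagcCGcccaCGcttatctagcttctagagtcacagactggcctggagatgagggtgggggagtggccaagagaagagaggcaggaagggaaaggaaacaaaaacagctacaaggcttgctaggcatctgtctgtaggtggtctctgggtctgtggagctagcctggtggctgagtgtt

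The upstream Scn8a window held 38 CpG, a number reached or passed by 4.95% of 32851 mouse promoter windows of that length. The downstream Scn8a window, not printed, held 12, reached or passed by 39.6%. The Scn1a window held 5, the Scn7a window 3 and the Scn2b window 2, all below the median of 7 over all windows. Of the members that were lower in peri-infarct tissue, Scn1a and Scn2b thus lay below the median and both Scn8a windows above it. On either strand, the TATA box TATAAA was found in 1 of the 8 member windows (the downstream window of Scn2a) and in 13.6% of all windows. The GC box GGGCGG was found in the Scn7a window and in 35.7% of all windows. The cAMP response element TGACGTCA (1.79% of all windows) and TTCAGCACC, a half-site of the neuronal repressor element RE1 (0.371%), were in no member window. A match describes letters only.

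Read pairs assigned to genes numbered 14445021 to 22171627 per library (median 19008532), and values are given as CPM (counts scaled to library size) scaled by the trimmed mean of M values (TMM). Reactive astrocyte markers checked the region labels: 8 of 8 were higher in peri-infarct than in contralateral tissue in each treatment. Vehicle mice and HPBCD mice are named throughout as the labels give them, and every direction between treatments rests on those labels. Whether the treatment labels are right was not tested. If they were exchanged, each such direction would turn, and each regional result would belong to the other treatment. A few libraries stood apart. Vehicle contralateral replicate 1 held 3800 summed CPM of 8 striatal medium spiny neuron markers, against 220 to 304 in the other libraries of its group. Vehicle contralateral replicate 4 had the highest Scn2a, Scn7a and Scn3b of its group, and HPBCD peri-infarct replicate 2 the highest Scn8a and Scn3b of its group. HPBCD contralateral replicate 3 held 612 summed CPM of ependymal and choroid plexus markers, against 5.30 to 11.6 in the rest of its group, and HPBCD contralateral replicate 4 had the highest shares of reads with no feature (9.50%) and ambiguous reads (8.03%).

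All 8 members passed the filter on low counts in every comparison. Compared per kilobase of exon, Scn2b was the highest member in vehicle contralateral tissue (55.5 ± 6.77 CPM per kb, SD, n = 5), followed by Scn4b (46.1 ± 57.8), Scn8a (26.3 ± 0.813), Scn2a (21.1 ± 6.18), Scn1a (17.5 ± 1.64), Scn3b (13.0 ± 3.72), Scn3a (2.58 ± 0.711) and Scn7a (0.422 ± 0.364). In this order the ranges of neighbours overlapped down to Scn3b. Scn3a and Scn7a were each separated from the member before them in all 4 groups. In both peri-infarct groups Scn1a moved down to the sixth place, below Scn8a and with no overlap between their ranges.

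**Figure D1:**
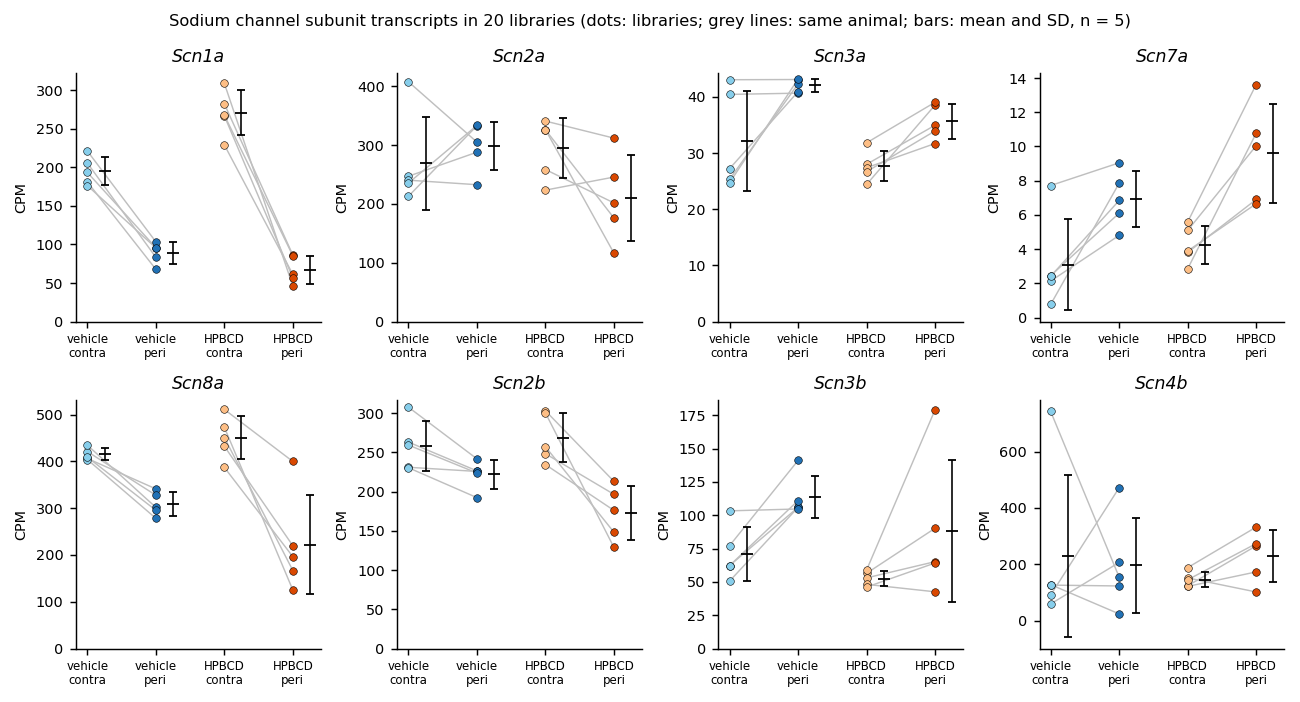
CPM of the 8 subunit transcripts (y axis, linear, own scale per panel) in the 4 groups (x axis). Dots are libraries, grey lines join the regions of 1 animal, and bars are the mean and SD of 5 libraries. Scn1a falls in every animal of both treatments, while the Scn4b panel is spread by 1 vehicle contralateral library at 742 CPM.

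The comparison of regions asks how the tissue beside a chronic infarct differs from the opposite hemisphere. In vehicle mice 3 of the 8 members passed the test (edgeR quasi-likelihood test, adjusted p under 0.05 over all genes): Scn1a and Scn8a fell and Scn3b rose. Among all 15801 genes tested, 20.2% passed, 10.5% higher and 9.70% lower in peri-infarct tissue. The ranges of the groups did not overlap for 3 members, against 13.4% of all genes. In HPBCD mice 6 members passed: Scn1a, Scn8a and Scn2b fell and Scn3a, Scn7a and Scn4b rose. There 54.6% of 16047 genes passed, 30.3% higher and 24.3% lower, and the ranges did not overlap for 3 members and for 42.5% of all genes. The median log2 fold change of the members was -0.05 in vehicle and -0.06 in HPBCD mice, beside 0.01 and 0.03 over all genes. With 8 members, nothing particular to the family is read from these counts, and each member is described by its own values.

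Scn1a, the Nav1.1 pore, showed the largest decrease of the family. In vehicle mice, contralateral libraries held 193, 221, 181, 176 and 206 CPM and peri-infarct libraries 95.9, 103.5, 67.8, 95.6 and 83.4 CPM (replicates 1 to 5). In HPBCD mice, contralateral libraries held 229, 282.5, 267, 309 and 268 CPM and peri-infarct libraries 61.2, 86.3, 56.8, 46.1 and 85.4 CPM. The groups did not overlap in either treatment, and the peri-infarct value was lower in 5 of 5 animals of each. Scn1a fell by 1.14 on the log2 scale in vehicle mice (SE 0.111, adjusted p = 0.00115 by edgeR) and by 2.01 in HPBCD mice (SE 0.175, adjusted p = 1.85e-06), that is 2.21-fold and 4.02-fold. Every alternative kept both calls, with log2 fold changes between -1.21 and -1.05 in vehicle and between -2.13 and -1.91 in HPBCD mice, the scaling to neuronal transcripts described below apart.

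Scn8a, the Nav1.6 pore of the axon initial segment, also fell. Vehicle contralateral libraries held 406, 421, 404, 434.5 and 409 CPM and vehicle peri-infarct libraries 341, 328, 278, 302 and 295 CPM, with no overlap. In HPBCD mice the contralateral libraries held 432, 511, 451, 473 and 387 CPM and the peri-infarct libraries 220, 399.7, 167, 125 and 196 CPM. Here replicate 2, at 399.7 CPM, reached into the contralateral range, and the other 4 peri-infarct libraries were below it. The log2 fold change was -0.44 in vehicle mice (SE 0.0702, adjusted p = 0.00286 by edgeR) and -1.01 in HPBCD mice (SE 0.259, adjusted p = 0.00505), or -1.36 without replicate 2 (adjusted p = 6.76e-06). The vehicle call was lost when all 4 groups shared 1 estimate of the spread (-0.43, adjusted p = 0.129).

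Scn2a, the Nav1.2 pore, passed the test in neither treatment. Vehicle contralateral libraries ranged from 213 to 408 CPM (median 240.5) and vehicle peri-infarct libraries from 233 to 334 CPM (median 305), a log2 fold change of 0.14 (SE 0.167, adjusted p = 0.598 by edgeR). The 408 CPM belonged to vehicle contralateral replicate 4. Without that library the log2 fold change was 0.34 and passed (adjusted p = 0.0349). In HPBCD mice the contralateral range was 224 to 341 CPM and the peri-infarct range 116 to 312 CPM, a log2 fold change of -0.48 (SE 0.228, adjusted p = 0.0915). It passed in 4 of 19 alternatives, among them the one without HPBCD peri-infarct replicate 2 (-0.69, adjusted p = 0.00739). The point estimates of Scn2a thus lay on opposite sides of 0 in the 2 treatments, and the test of that difference is given with the interaction.

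Scn3a, the Nav1.3 pore, was low in both regions. Vehicle contralateral libraries held 43.0, 25.3, 24.7, 40.4 and 27.2 CPM, and vehicle peri-infarct libraries lay close together at 43.1, 42.3, 43.2, 40.65 and 40.9 CPM. Replicates 1 and 4 of the contralateral group, both among the libraries that stood apart, were as high as the peri-infarct libraries, and the other 3 were lower. The log2 fold change was 0.37 (SE 0.154, adjusted p = 0.107 by edgeR) with all libraries and 0.68 (adjusted p = 0.00106) without those 2. In HPBCD mice Scn3a rose from 24.4, 31.8, 28.0, 27.4 and 26.7 CPM to 38.5, 39.0, 34.9, 31.7 and 33.9 CPM, a log2 fold change of 0.37 (SE 0.0969, adjusted p = 0.0061). It was higher in peri-infarct tissue in 5 of 5 animals of each treatment, by as little as 0.002 on the log2 scale in 1 vehicle animal.

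Scn7a, the sodium-sensing Nax, was the rarest member. Its counts were 14, 45, 36, 142 and 49 in vehicle contralateral libraries and 154, 119, 85, 192 and 143 in vehicle peri-infarct libraries. In HPBCD mice they were 57, 101, 81, 50 and 69 in contralateral and 256, 198, 281, 125 and 139 in peri-infarct libraries. All libraries were thus well above the floor of 3 counts. Scn7a rose in HPBCD mice, from 2.85 to 5.58 CPM to 6.65 to 13.6 CPM with no overlap (log2 fold change 1.18, SE 0.234, edgeR adjusted p = 0.000921). Glial and stromal markers were higher in the same comparison, 6 of 6 for oligodendrocytes, 8 of 8 for microglia and macrophages, 4 of 6 for astrocytes and 7 of 7 for fibroblasts and meninges, beside 30.3% of all genes, and their part in the Scn7a values was not tested. In vehicle mice these counts were 0, 8, 4 and 2. In vehicle mice the Scn7a size was alike and did not pass (1.15, SE 0.447, adjusted p = 0.0912). With the animal as a block it passed (1.40, adjusted p = 0.0378), and without vehicle contralateral replicate 4, whose 7.72 CPM was the highest of its group, it was 1.82 (adjusted p = 0.00382).

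Of the beta subunits, Scn2b fell in HPBCD mice. Contralateral libraries held 248, 303, 257, 300.4 and 234.5 CPM and peri-infarct libraries 197, 213, 148, 129 and 176 CPM, with no overlap (log2 fold change -0.63, SE 0.145, edgeR adjusted p = 0.0025). In vehicle mice it went from 308, 231, 230.5, 263 and 259 CPM to 242, 226, 192, 226.5 and 224 CPM. These ranges overlapped, and the log2 fold change of -0.23 (SE 0.0912) missed the threshold (adjusted p = 0.0949), although the peri-infarct value was the lower one in 5 of 5 animals.

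Scn3b rose in vehicle mice, from 77.2, 50.6, 62.3, 103 and 62.2 CPM to 141, 106, 106, 105 and 111 CPM. The highest contralateral library, replicate 4 at 103 CPM, came close to the lowest peri-infarct library at 105 CPM, and the ranges did not overlap. The log2 fold change was 0.67 (SE 0.169, adjusted p = 0.0186 by edgeR), and it missed the threshold when all 4 groups shared 1 fit (0.68, adjusted p = 0.0767). In HPBCD mice Scn3b went from 56.4, 58.8, 53.0, 48.1 and 46.1 CPM to 90.2, 179, 65.2, 42.6 and 64.2 CPM. The peri-infarct group here ran from 42.6 CPM in replicate 4 to 179 CPM in replicate 2, and the log2 fold change of 0.76 (SE 0.312) missed the threshold (adjusted p = 0.0539). It passed in 8 of 19 alternatives, DESeq2 among them (0.72, adjusted p = 0.0285). Without replicate 2 it was 0.31 (adjusted p = 0.127).

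Scn4b, which is strongly expressed in striatal projection neurons, had the widest spread of the members in vehicle mice. Vehicle contralateral libraries held 742, 126, 91.1, 59.6 and 128 CPM and vehicle peri-infarct libraries 154.5, 123, 472, 207 and 24.2 CPM. The log2 fold change was -0.23 (SE 0.767, adjusted p = 0.861 by edgeR) and changed sign, to 0.96 (adjusted p = 0.289), without vehicle contralateral replicate 1, the library with 3800 summed CPM of striatal markers. In HPBCD mice contralateral libraries held 124, 152, 122, 188 and 145 CPM and peri-infarct libraries 265.5, 102, 173, 332 and 273.5 CPM. Scn4b rose there by the test (log2 fold change 0.64, SE 0.249, adjusted p = 0.0438), a call lost in 10 of 19 alternatives, among them those without any 1 of peri-infarct replicates 1, 4 and 5 or contralateral replicates 1, 2, 3 and 5. The 8 striatal markers were set beside Scn4b. In HPBCD mice 8 of 8 rose (median log2 fold change 2.81), as did 30.3% of all genes. Their summed levels were 231 to 279 CPM in contralateral and 767 to 2223 CPM in peri-infarct libraries. In vehicle mice 0 of 8 passed, with 220 to 3800 CPM and 372 to 2160 CPM. Scn4b did not follow the markers in every library, with 123 CPM at 1086 striatal CPM in vehicle peri-infarct replicate 2. None of the 8 was at 0 throughout a group, and the part of striatal tissue in the Scn4b values was not tested.

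**Figure D2:**
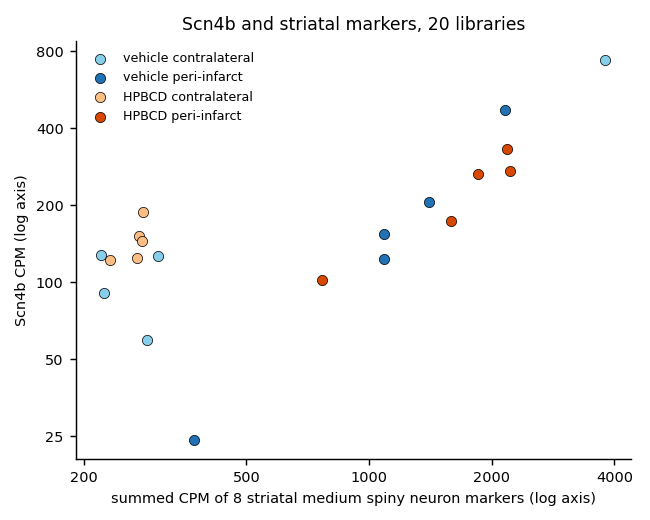
Scn4b CPM (y axis, log scale) against the summed CPM of 8 striatal medium spiny neuron markers (x axis, log scale) in the 20 libraries, coloured by group. The vehicle contralateral library at 3800 striatal CPM holds the highest Scn4b, 742 CPM, while the other 9 contralateral libraries, at 220 to 304 striatal CPM, hold 59.6 to 188 CPM, above the 24.2 CPM of the vehicle peri-infarct library at 372 striatal CPM.

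The mix of the alpha subunits was also given as shares of the summed alpha CPM per kilobase, with no test. In vehicle mice the mean Scn1a share was 26.1% (SD 3.89) in contralateral and 14.4% (SD 1.11) in peri-infarct tissue. In HPBCD mice it was 30.9% (SD 1.95) and 15.2% (SD 2.9). The ranges did not overlap in either treatment. The Scn2a share went the other way, from 30.7% (SD 5.59) to 42.3% (SD 2.84) in vehicle and from 29.2% (SD 2.2) to 40.3% (SD 2.74) in HPBCD mice. Scn8a took 38.9% and 35.5% in vehicle and 36.3% and 33.5% in HPBCD mice. Scn3a took 3.78% and 6.15% in vehicle and 2.82% and 7.52% in HPBCD mice, and Scn7a stayed the smallest, with a mean of 3.42% in HPBCD peri-infarct tissue at most. The ratio of Scn2a to Scn1a per kilobase, which does not depend on library scaling, was 0.844 to 2.02 in vehicle contralateral and 2.63 to 3.50 in vehicle peri-infarct libraries. In HPBCD mice it was 0.846 to 1.07 and 2.07 to 3.52. No peri-infarct library had a ratio as low as that of any contralateral library, and the contralateral library at 2.02 was again vehicle replicate 4. Summed over the 5 alpha genes, levels were 68.0 ± 6.67 and 55.4 ± 5.42 CPM per kb in vehicle and 78.9 ± 8.81 and 40.8 ± 13.8 CPM per kb in HPBCD mice (SD, n = 5 each).

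**Figure D3:**
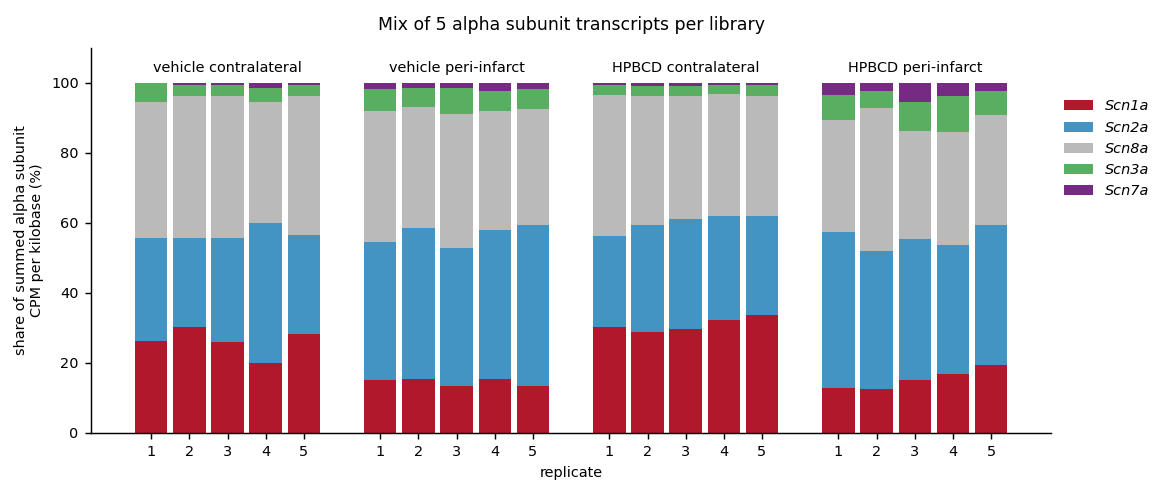
Shares of the 5 alpha subunits (stacked bars, % of summed CPM per kilobase, y axis from 0) in each library (x axis, replicate within group). The Scn1a share is 13.2% to 15.4% in vehicle peri-infarct libraries and 19.9% to 30.2% in vehicle contralateral libraries, and the Scn2a share is 39.4% to 46.3% in vehicle peri-infarct libraries and 25.5% to 40.2% in vehicle contralateral libraries, which overlap.

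Pan-neuronal markers were also lower in peri-infarct tissue. The summed CPM of 12 pan-neuronal markers was 11050 to 12690 in vehicle contralateral and 7226 to 9892 in vehicle peri-infarct libraries, with 4 of 12 markers lower. In HPBCD mice it was 12690 to 13590 and 4031 to 7117, with 12 of 12 lower. No marker was at 0 throughout a group. In bulk tissue fewer neurons and less RNA per neuron cannot be told apart. The members were therefore also tested with libraries scaled to the summed counts of the 12 markers, a quantity called relative to neurons. On this scale the median of all genes was 0.49 higher in vehicle and 1.27 higher in HPBCD peri-infarct tissue (log2), and each change is to be read against that shift.

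Relative to neurons, Scn1a was the only member that fell, and it did so in both treatments: by 0.68 on the log2 scale in vehicle mice (SE 0.0881, adjusted p = 0.000702 by edgeR) and by 0.82 in HPBCD mice (SE 0.132, adjusted p = 3.58e-05). Genes that fell on this scale were 0.968% of those tested in vehicle and 0.941% in HPBCD mice. As a share of the pan-neuronal sum, Scn1a was 1.47% to 1.79% in vehicle contralateral and 0.925% to 1.13% in vehicle peri-infarct libraries, and 1.69% to 2.29% and 0.949% to 1.38% in HPBCD mice. None of these ranges overlapped between the regions. Scn8a, which fell in CPM, passed the test in neither treatment on this scale, with log2 fold changes of 0.03 (SE 0.078, adjusted p = 0.696) and 0.12 (SE 0.167, adjusted p = 0.489). Its share of the pan-neuronal sum was 3.22% to 3.68% and 3.28% to 3.85% in vehicle mice. In HPBCD mice it was 2.93% to 3.84% in contralateral and 3.10% to 5.62% in peri-infarct libraries, where replicate 2 held the 5.62% and the other 4 libraries at most 3.41%.

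Other members were higher relative to neurons, as were 65.2% of all genes in vehicle and 90.9% in HPBCD mice. The scaling uses the sum of the 12 markers, and single markers were called higher on it as well, 6 of 12 in vehicle (median 0.22) and 7 of 12 in HPBCD mice (median 0.29). In vehicle mice Scn2a (0.60, SE 0.159, edgeR adjusted p = 0.00627), Scn3a (0.85), Scn7a (1.63) and Scn3b (1.14) rose. In HPBCD mice Scn2a (0.67, SE 0.155, adjusted p = 0.00088), Scn3a (1.59), Scn7a (2.40), Scn2b (0.56), Scn3b (1.87) and Scn4b (1.97) rose. Against the shift of 1.27, Scn2a and Scn2b gained less than the median gene in HPBCD mice, and Scn3a, Scn7a, Scn3b and Scn4b gained more. Scn2b in vehicle mice was 0.24 (adjusted p = 0.0731), and it passed with the animal as a block (0.25, adjusted p = 0.0306). Snap25 alone made up 25.6% to 45.1% of the neuronal sum. Without Snap25 the Scn8a value in vehicle mice was -0.21 and passed as lower (adjusted p = 0.032), Scn2a in vehicle mice was 0.37 (adjusted p = 0.0683) and Scn2b in HPBCD mice 0.21 (adjusted p = 0.0613), so both lost their calls. The genes called in vehicle mice on this scale went from 10452 to 4958. Scn1a kept its direction and call in both treatments.

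**Figure D4:**
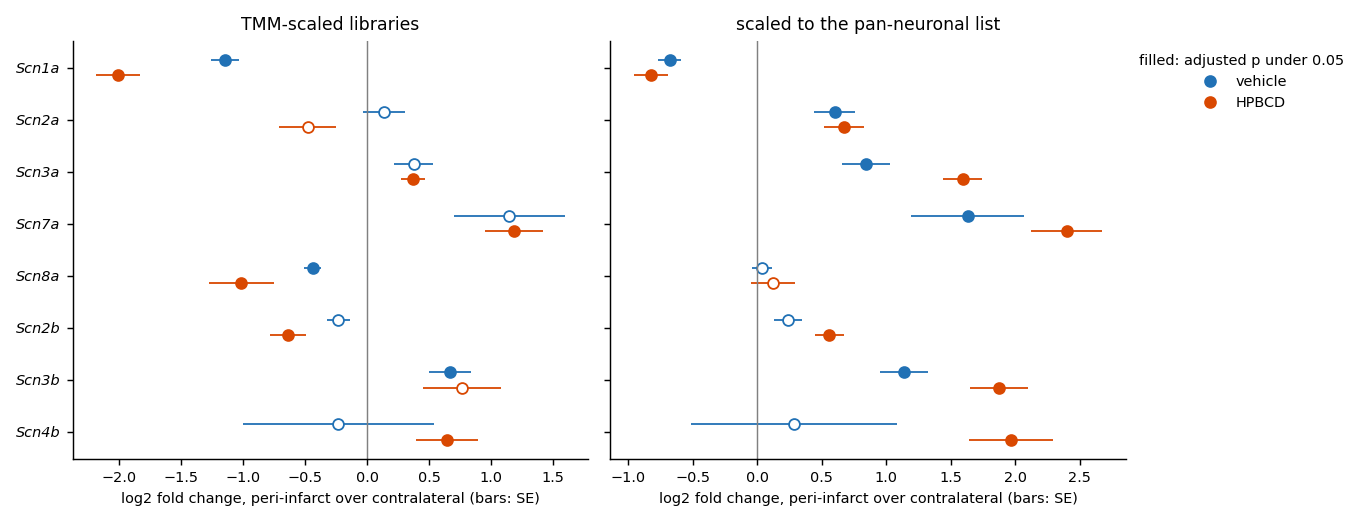
Log2 fold change of peri-infarct over contralateral tissue (x axis) for the 8 members (y axis) in vehicle and HPBCD mice, on TMM-scaled libraries (left) and on libraries scaled to 12 pan-neuronal markers (right). Bars are SE and filled dots have an adjusted p under 0.05. Scn1a lies left of 0 in both panels, at -1.14 and -2.01 on the left and -0.68 and -0.82 on the right.

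Nav1.1 is prominent in parvalbumin interneurons, and markers of these cells were set beside Scn1a. Of 7 such markers 4 fell in vehicle mice (median log2 fold change -0.62). In HPBCD mice 6 fell and 1 rose (median -1.22). Over all genes 9.70% fell in vehicle and 24.3% in HPBCD mice. Relative to neurons 3 of 7 were lower in vehicle mice (median -0.14), and 3 were lower and 1 higher in HPBCD mice (median -0.08). Over all genes 0.968% and 0.941% were called lower on that scale, and Scn1a was -0.68 and -0.82. Their summed level was 732 to 939 CPM in vehicle contralateral, 454 to 573 in vehicle peri-infarct, 985 to 1142 in HPBCD contralateral and 304 to 497 CPM in HPBCD peri-infarct libraries. No marker was at 0 throughout a group. Pvalb itself, the calcium buffer that names the cells, fell by 2.26 (SE 0.337, adjusted p = 0.00235 by edgeR) and by 2.99 (SE 0.246, adjusted p = 1.37e-06) on the log2 scale. The part of these cells in the Scn1a values was not tested.

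The other genes of the pathway were described from 2 lists, channel-binding factors and partners at the axon. Outside them, Scn9a, the Nav1.7 pore of peripheral neurons, fell in HPBCD mice, with means of 3.26 CPM (contralateral) and 1.65 CPM (peri-infarct; log2 fold change -0.97, adjusted p = 0.00421 by edgeR). The skeletal muscle gene Scn4a had at most 0.151 CPM in any library.

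FGF homologous factors bind the cytoplasmic tail of sodium channels. In vehicle mice 1 of 4 passed, Fgf12 (-0.46, edgeR adjusted p = 0.0136). In HPBCD mice 3 of 4 fell, Fgf12 (-1.51, adjusted p = 6.55e-06), Fgf14 (-0.71, adjusted p = 0.000492) and Fgf13 (-0.51, adjusted p = 0.0396). Of 15 partners at the axon initial segment and node, 2 fell in vehicle mice, the potassium channels Kcna1 (-0.84, adjusted p = 0.00165) and Kcna2 (-0.57, adjusted p = 0.00124), and none rose. In HPBCD mice 8 of the 15 fell and none rose, among them Kcna2 (-1.38), Kcna1 (-1.11) and the paranodal protein Cntnap1 (-0.67). Genes called lower were 9.70% of all genes in vehicle and 24.3% in HPBCD mice. Relative to neurons, a scale on which 65.2% of all genes in vehicle and 90.9% in HPBCD mice were called higher, 10 of the 15 partners were higher and 1 lower in vehicle mice and 13 higher and 0 lower in HPBCD mice, shares near those of all genes. Of the 4 FGF homologous factors 2 were higher on that scale in vehicle mice, and 3 were higher and 1 lower in HPBCD mice. The median log2 fold change was -0.03 in vehicle and -0.32 in HPBCD mice for this list, -0.16 and -0.61 for the FGF homologous factors, and 0.01 and 0.03 over all genes.

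The comparison of treatments within a region asks what distinguishes HPBCD from vehicle mice 7 weeks after stroke. In peri-infarct tissue 1 of 8 members passed, Scn3a, which was lower in the libraries labelled HPBCD. Among 16224 genes tested, 21.4% passed and 9.00% passed as lower. Scn3a held 40.65 to 43.2 CPM in vehicle and 31.7 to 39.0 CPM in HPBCD libraries, and it was the only member whose ranges did not overlap, against 13.4% of all genes. The log2 fold change was -0.24 (SE 0.0776, adjusted p = 0.046 by edgeR). The call was lost in 11 of 18 alternatives, among them those that left out any 1 library other than HPBCD peri-infarct replicate 2, and relative to neurons Scn3a was 0.37 (adjusted p = 0.0422), on a scale that raised the median gene by 0.65. The remaining members did not pass: Scn1a (-0.41, adjusted p = 0.115), Scn2a (-0.51), Scn8a (-0.48), Scn2b (-0.37, adjusted p = 0.072), Scn3b (-0.36), Scn7a (0.47) and Scn4b (0.21). The members' median was -0.37, beside 0.01 over all genes.

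The count moved with the libraries and the tool. It was 0 without any 1 of the 9 libraries other than HPBCD peri-infarct replicate 2, and 6 with limma voom on all libraries. Without replicate 2 of the HPBCD group the genes called rose from 3471 to 5338 over all genes, and 6 members passed, all of them lower in the libraries labelled HPBCD: Scn1a (-0.53, edgeR adjusted p = 0.0391), Scn2a (-0.71), Scn8a (-0.82), Scn2b (-0.47), Scn3b (-0.81) and Scn3a. Replicate 2 held the highest Scn1a, Scn2a, Scn3a, Scn8a, Scn2b and Scn3b of its group and the most pan-neuronal transcript, 7117 CPM against 4031 to 6449 in the others. Marker lists differed between the groups as well. Over all genes 21.4% passed in either direction and 9.00% passed as lower. Of 12 pan-neuronal markers 11 were lower in the libraries labelled HPBCD. Of 7 fibroblast and meningeal markers 7 were higher there, with summed levels of 605 to 1436 CPM against 118 to 423 CPM. Of 8 reactive astrocyte markers 3 were higher and 0 lower in the libraries labelled HPBCD (median 1.07), with summed levels of 3288 to 6781 CPM against 729 to 3853 CPM. Their part in the values of the channel genes was not tested. Among the pathway lists, Fgf12 (-0.83, adjusted p = 0.0155) and the microtubule bundling protein Trim46 (-0.45, adjusted p = 0.0164) were lower in the libraries labelled HPBCD.

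Relative to neurons all 8 members had positive values between the treatments, so the sign of Scn1a (0.18), Scn2a (0.05), Scn8a (0.06), Scn2b (0.22) and Scn3b (0.14) turned, none of them past the test. On this scale 2 members passed, Scn3a and Scn7a (1.09, SE 0.254, adjusted p = 0.00738), both higher, as were 66.9% of all genes, whose median shift was 0.65.

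In contralateral tissue no member passed, nor did any of the 15469 genes tested with edgeR (0%). An unadjusted p under 0.05 was found for 1224 genes, 2 members among them, and DESeq2 called 56 genes. Scn1a had the lowest p of the members, while Scn4b had the larger difference (-0.66, SE 0.553, adjusted p = 0.796 by edgeR), which was 0.52 without vehicle contralateral replicate 1. Scn1a held 176 to 221 CPM in vehicle and 229 to 309 CPM in HPBCD libraries, with no overlap, as for 1.51% of all genes (log2 fold change 0.46, SE 0.0879, adjusted p = 0.4055 by edgeR). DESeq2 called Scn1a (0.46, adjusted p = 0.00184), and over all alternatives its adjusted p ran from 0.00184 to 0.798. On simulated counts of other comparisons, DESeq2 made a larger share of false calls than edgeR. The other member was Scn3b (-0.45, SE 0.157, adjusted p = 0.555), which was -0.16 without vehicle contralateral replicates 1 and 4. Relative to neurons no member and no gene passed (0%).

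The interaction of region and treatment tests whether the regional difference itself differed between vehicle and HPBCD mice. It passed for 1 member, Scn1a, and for 9.41% of 16758 genes. For Scn1a it was -0.88 on the log2 scale (SE 0.2075, adjusted p = 0.0201 by edgeR), which set the fall of 2.01 in HPBCD mice against that of 1.14 in vehicle mice, and it passed in each of 29 alternatives (-0.97 to -0.77). It includes both the higher contralateral and the lower peri-infarct values of the libraries labelled HPBCD. On the scale relative to neurons, the interaction was -0.15 and did not pass (adjusted p = 0.383). The interaction of Scn2a was -0.64 (SE 0.297, adjusted p = 0.16), that of Scn8a -0.60 (SE 0.274, adjusted p = 0.154) and that of Scn2b -0.42 (SE 0.17, adjusted p = 0.112). These 3 passed without HPBCD peri-infarct replicate 2, at -0.80, -0.90 and -0.48. Scn3a (-0.02, SE 0.184) and Scn7a (0.02, SE 0.541) were near 0 with all libraries. Without vehicle contralateral replicates 1 and 4 and HPBCD peri-infarct replicate 2, Scn3a was -0.37 and passed (adjusted p = 0.0358), and Scn7a was -0.40 (adjusted p = 0.463). Scn3b was 0.07 with all libraries and -0.64 without these libraries (adjusted p = 0.0592), and Scn4b 0.88 and 0.08. Relative to neurons the interactions of Scn3a (0.75, adjusted p = 0.0106) and Scn3b (0.74, adjusted p = 0.0371) passed with a positive sign. On that scale 11571 of the 16758 genes passed. The median gene was 0.49 higher in vehicle regions and 1.27 higher in HPBCD regions. Nothing particular to these members is read from their calls. Of the pathway lists, Fgf12 (-1.06, adjusted p = 0.0139) and Kcna2 (-0.83, adjusted p = 0.0177) passed, as did 8 of 12 pan-neuronal markers, all with a negative interaction.

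**Figure D5:**
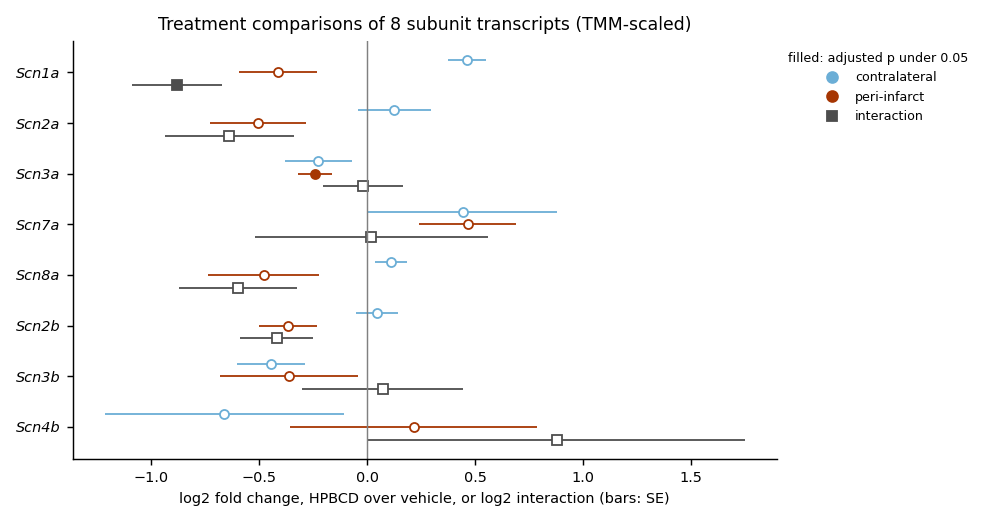
Log2 fold change of HPBCD over vehicle in contralateral and peri-infarct tissue, and the log2 interaction of region and treatment (x axis), for the 8 members (y axis). Bars are SE and filled symbols have an adjusted p under 0.05, which holds for Scn3a in peri-infarct tissue and for the interaction of Scn1a at -0.88.

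The members did not form 1 pattern over the 20 libraries. Pearson correlations of log2 CPM were 0.93 between Scn8a and Scn2b, 0.87 between Scn1a and Scn8a, 0.80 between Scn3a and Scn3b and -0.62 between Scn1a and Scn7a. Libraries share region and treatment, so these values describe the groups as much as single libraries. Among 11786 other genes with a mean of at least 5 CPM, the profile of Scn1a was most like those of Vamp1, a synaptic vesicle fusion protein (r = 0.984), Krt222 (0.983) and Jdp2 (0.982). Scn2a was most like Dmxl2, Kif3a, a microtubule motor, and the growth kinase Mtor (0.967 to 0.976). Scn3a was nearest to Caln1, Trrap and Fam171a1 (0.921 to 0.927), and Scn7a to the plexin Plxnc1, Mpdz and the growth factor gene Hgf (0.888 to 0.906). Scn8a was nearest to Agtpbp1, Mal2 and the sodium pump subunit Atp1b1 (0.976 to 0.98), and Scn2b to Plcb1, Ndufs1 and Adam22 (0.958 to 0.967). Among the nearest to Scn3b were Plppr4 and Grhl1 (0.923 to 0.946). For Scn4b the nearest were Pcp4l1, Rasd2, a striatum-enriched small GTPase, and Rerg (0.886 to 0.943).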

How the data were processed

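RNA was measured in 20 libraries of brain tissue, 5 per group. Per the labels and the study's methods, the authors made stranded mRNA libraries, trimmed reads with Trimmomatic 0.32, aligned them to GRCm38 with STAR 2.5.2b and counted them with HTSeq, whose version, annotation release and strand option are not given in the sources used here. The deposited values are raw counts per Ensembl gene. Lines that name no gene were left out (no feature 4.39% to 9.50%, ambiguous 3.94% to 8.03%, not unique 16.6% to 24.3% per library). Of 46078 genes, 98.0% were found in GENCODE M21. Depth is given in the report, and 3 counts, the floor, correspond to 0.135 to 0.208 CPM.

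Groups were compared with edgeR 4.0.16 (R 4.3.3) quasi-likelihood tests on these counts, with TMM factors, the default low-count filter and Benjamini-Hochberg adjustment over all genes, called at 0.05. p-values are two-sided and come from setting each difference against the spread between libraries. The main fits treat the regions of an animal as independent, and the animal block is an alternative. On simulated counts with 200 genes changed 2-fold, edgeR recovered 70% in the vehicle comparison of regions (15616 genes) and 54.5% in the interaction (16521 genes). False calls made up 4.11% and 5.22% of the calls of edgeR, and 14.4% and 19.9% of those of DESeq2. The other comparisons were not simulated, and the data had more genes called than the 200 changed in the simulation. Correlations used log2 CPM with a prior count of 2. The treatment comparisons reuse the libraries of the region comparisons. Alternatives were DESeq2 1.42.0, limma 3.58.1 voom with quality weights, other scalings and filters (none, or 10 counts in every library), thinning, an animal block, a fit of all 4 groups and leaving out each library.

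Peri-infarct and contralateral libraries of 1 number and treatment share an identifier in 10 of 10 cases and were taken as 1 animal; the mean correlation of their deviations was 0.088, with 4 of 10 pairs over 0.1. Named genes were the 8 members, up to 3 called genes per direction of each pathway list and the 3 genes nearest to each member. The members and lists were chosen with earlier results of these data known. Some genes of the pathway lists and 1 of the nearest genes are not reported here.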

Additional observations from a re-analysis of the deposited data

Results flagged for a closer look

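In groups of 5 libraries, 32 sets of values (8 members in 4 groups) were examined for a library far from the others, and 4 passed the critical value of 0.71 for the gap to the nearest library over the range of the group. For independent, normally distributed values such a gap arises in about 1 of 20 sets. These sets reuse the same libraries, so the 4 are not read against that rate. Vehicle contralateral replicate 4 was far above its group for Scn2a (408 CPM, gap 0.826) and for Scn7a (7.72 CPM, gap 0.758). Vehicle contralateral replicate 1 was far above its group for Scn4b (742 CPM, gap 0.9). Vehicle peri-infarct replicate 1 was far above its group for Scn3b (141 CPM, gap 0.826).

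The regional difference of Scn1a differed between the treatments by the interaction test, at -0.88 on the log2 scale (SE 0.2075, adjusted p = 0.0201 by edgeR). The peri-infarct value was lower in 5 of 5 animals of each treatment. On the scale relative to neurons the same interaction was -0.15 (adjusted p = 0.383).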

How the results depend on the processing

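The vehicle comparison of regions called 3 members, and 5 with DESeq2, with limma voom, with libraries scaled to the pan-neuronal list and without vehicle contralateral replicates 1 and 4, an alternative chosen after seeing the data. It called 3 to 6 when 1 library was left out, with 6 without vehicle contralateral replicate 4. The HPBCD comparison of regions called 6 members, and 5 to 7 without 1 library. The treatment comparison in peri-infarct tissue called 1 member, 2 with DESeq2, 6 with voom, 0 without a filter, 2 in the fit of all 4 groups, 2 scaled to the pan-neuronal list, and 0 to 6 without 1 library. Contralateral tissue had 0 members called, 1 with DESeq2 and 0 without any 1 library. The interaction called 1 member, 4 with voom, 5 without these 2 and HPBCD peri-infarct replicate 2, 2 scaled to the pan-neuronal list and 1 to 4 without 1 library. Relative to neurons, the vehicle regions called 5 (5 to 6 without 1 library) and the HPBCD regions 7 (7 to 7). The treatments in peri-infarct tissue called 2, with 1 unfiltered, 4 with voom, 1 without Map2 in the list and 1 to 3 without 1 library. Contralateral tissue called 0, and 1 with voom.

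Scaling to the pan-neuronal list raised the median gene by 0.49 in vehicle regions, 1.27 in HPBCD regions and 0.65 between treatments in peri-infarct tissue. With that shift it turned the sign of members that had no call on either scale (among them, between treatments in peri-infarct tissue Scn1a, Scn2a, Scn8a, Scn2b and Scn3b, and in vehicle regions Scn2b and Scn4b) and of Scn8a in vehicle (0.03) and HPBCD regions (0.12), of Scn2a (0.67) and Scn2b (0.56) in HPBCD regions, and of Scn3a between treatments (0.37) and in the interaction (0.75). In these comparisons, the interaction apart, each of the values printed lay below the median gene. Scn8a relative to neurons in vehicle mice was -0.21 without Snap25. With the animal as a replicate block, 4 members were called in vehicle regions, 6 in HPBCD regions, 1 in the interaction, and 6 and 7 relative to neurons. The block changed the calls of Scn7a in vehicle regions (1.40) and of Scn2b relative to neurons in vehicle mice (0.25) and no other call of a member.

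Over all genes, voom called 5065 in vehicle regions against 3195 with edgeR, 6012 against 3471 between treatments in peri-infarct tissue and 4109 against 1577 in the interaction, where DESeq2 called 2514. Scaled to the pan-neuronal list, these were 10452, 10879 and 11571, and 14734 against 8764 in HPBCD regions. Leaving out 1 library gave 2000 to 3920, 823 to 5338 and 529 to 3121. The cause of these differences was not tested. Depth limits Scn7a most, with 14 counts in its lowest library.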
